A study of Homo sapiens with 12 samples.

Results

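The genes described here are 38 genes of peroxisome proliferator-activated receptor (PPAR) signalling and fatty acid oxidation, taken from a fixed list by gene symbol. All 38 were found among the 19040 genes with values. Of them, 36 reached at least 1 FPKM in at least 2 libraries and were tested together with all other genes that did, 14080 in total. ACADL, the long-chain acyl-CoA dehydrogenase, and CD36, a fatty acid translocase of the plasma membrane, stayed below 1 FPKM in every library and are given as levels only. FPKM counts fragments relative to transcript length and library size, so levels can be compared between genes of different length.

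The libraries came from H9, an established line of human embryonic stem cells, differentiated toward heart muscle. The 6 groups, of 2 libraries each, were the vehicle DMSO, 60 µM F-53B and 60 µM PFOS, each sampled at day 8 and at day 12, and the compounds were present from day 0 onward. F-53B, a polyfluorinated sulfonate, carries an ether oxygen and a chlorine, and the perfluoroalkyl sulfonate PFOS lacks both. All groups share the cell line and the differentiation protocol, and the labels number the libraries of a group 1 and 2 without calling them separate cultures, so a p-value here reflects the spread of these libraries alone, and that spread may be technical.

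PPARs are nuclear receptors that bind DNA as partners of the retinoid X receptors and are switched on by fatty acids and related ligands. Their targets take up fatty acids, activate them to acyl-CoA, carry them into mitochondria through the carnitine shuttle and oxidise them, while PGC-1alpha, the product of PPARGC1A, is a coactivator that links this program to the making of mitochondria. The fetal heart relies largely on glucose and lactate, and the heart turns to fatty acids as its main fuel as it matures.

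Total FPKM per library ran from 389249 to 439919, and between 12915 and 13292 genes were at 1 FPKM or more. Across genes, which are not independent replicates, the 2 libraries of a group correlated with r of 0.989 (day 12 F-53B) to 0.9965. The day 12 F-53B pair stood apart from the others, with 134 genes differing by more than 2-fold against 10 to 39 in the other pairs. Replicate 1 of that pair was the higher one in 32 of the 38 genes, and in day 8 PFOS replicate 2 was the higher one in 31 of 38. The summed level of 22 cardiomyocyte markers, none of them listed at 0 in all libraries, made up 2.78% and 3.42% of all FPKM in day 8 DMSO and 4.69% and 4.70% in day 12 DMSO, so the labelled cardiac cells carried the markers of heart muscle.

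With F-53B, many genes for moving fatty acids into mitochondria and oxidising them fell, CPT1A and ETFB at both days and ETFDH at day 12 among them. At day 8, 19 of the 36 tested genes fell and 1, PPARG, rose, where 20.5% of all tested genes were called lower and 23.5% higher. At day 12, 32 fell and 2 rose, PPARG and ANGPTL4, where 28% of all tested genes were called lower and 28.2% higher. PPARG reached 1 FPKM only in libraries with a compound, so it entered both counts through the groups where it was high. The median log2 change of the 36 genes was -0.28 at day 8 and -0.66 at day 12, while the median over all tested genes was 0.02 and 0.0012. Changes are on the scale of log2(FPKM + 1), which shrinks them for genes near 0, and a call is an adjusted p under 0.05 in limma. Of the 19 genes that fell at day 8, 18 also fell at day 12, an overlap not counted over all tested genes. These made up 18 of the 32 that fell there. The exception among the 19 was ANGPTL4, which rose at day 12. Cardiomyocyte markers moved with this result: their share of all FPKM with F-53B was 0.613% and 0.601% at day 8 and 1.23% and 0.637% at day 12. In bulk samples fewer cells of a type and less RNA per cell cannot be told apart, and the part of cell type markers in the results for the 38 genes was not tested.

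With PFOS at the same dose few of these genes passed the test, a share near that over all tested genes at both days. At day 8, 0 rose and 2 fell, ACSL1 and ANGPTL4, where 3.69% of all tested genes were called higher and 3.08% lower. At an unadjusted p under 0.05 limma gave 2 genes higher and 7 lower. At day 12, 1 rose, ANGPTL4, and 4 fell, PDK4, UCP2, ACOX3 and ACSL4, where 6.67% of all tested genes were called higher and 5.62% lower. The median log2 change was -0.09 at both days, with 0.03 and 0.02 over all tested genes. These counts rested on single libraries: the day 8 count was 0 without PFOS replicate 1 and 1 without DMSO replicate 2, and the day 12 count was 1 without either DMSO library and 3 without PFOS replicate 1. Over all genes called at day 8, 54.6% were higher, against 43.5% when libraries were scaled by the median of ratios, and at day 12 54.3% were higher, against 40.5% when libraries were scaled to equal totals.

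**Figure D1:**
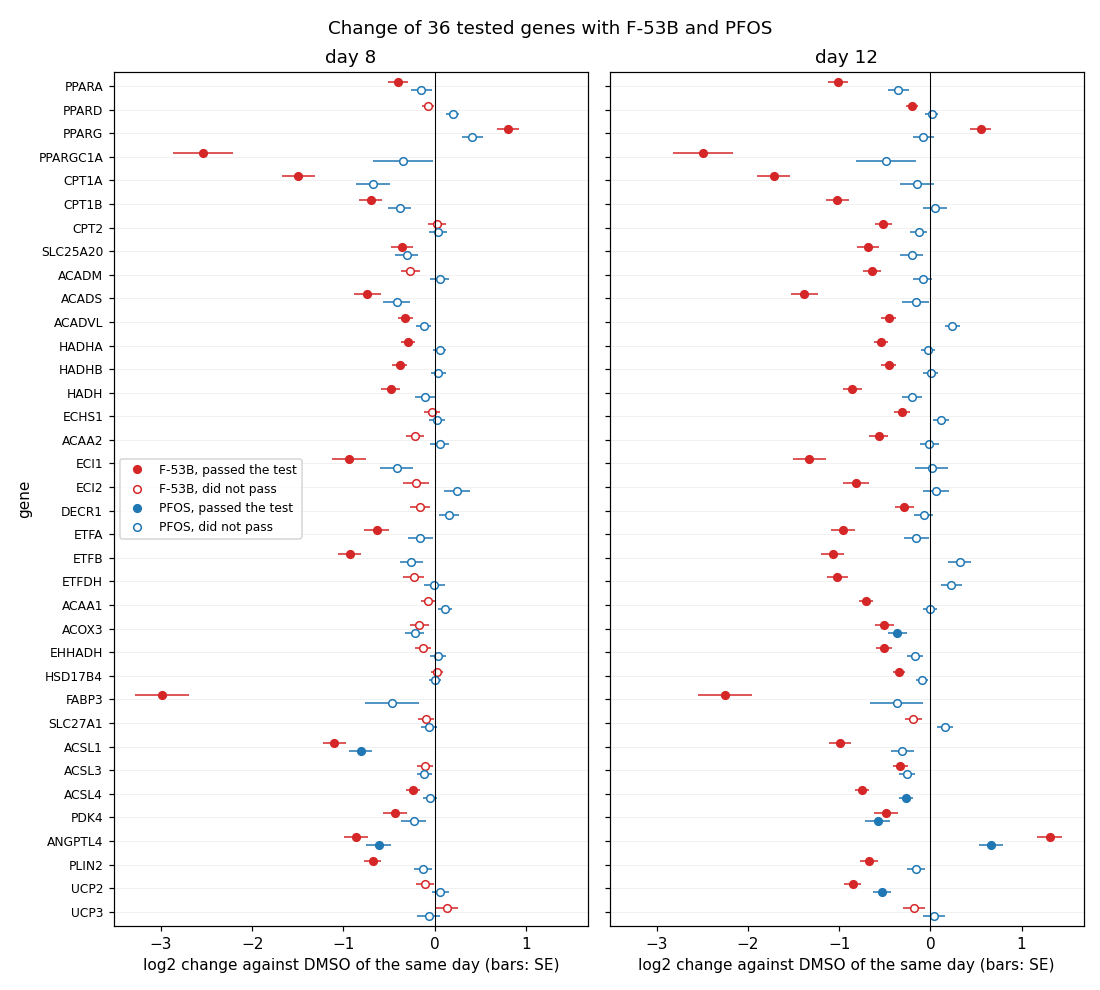
Log2 change against DMSO of the same day for the 36 tested genes, with F-53B in red and PFOS in blue; bars are standard errors, filled points passed the test and open points did not. Most red points lie left of 0, with 19 genes falling at day 8 and 32 at day 12, and ANGPTL4 lies on opposite sides of 0 at the 2 days.

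The receptors and their coactivator come first. PPARGC1A, the coactivator gene on chromosome 4 (23755041 to 23904089, GRCh38), was the member with the largest fall at day 12. It measured 10.5 and 9.69 FPKM in day 8 DMSO, 1.08 and 0.75 with F-53B, and 6.35 and 9.39 with PFOS. The day 12 levels were 20.3 and 21.2 FPKM in DMSO, 4.80 and 1.56 with F-53B, and 15.0 and 13.9 with PFOS. Both F-53B libraries were below every DMSO and PFOS library of their day, and the PFOS libraries were also all below the DMSO libraries. The mean was 11.02-fold lower with F-53B than with DMSO at day 8 (log2 change -2.54, SE 0.33, adjusted p = 0.000451) and 6.52-fold lower at day 12 (log2 change -2.50, SE 0.33, adjusted p = 0.000267). The lower PFOS levels did not pass the test (adjusted p = 0.595 at day 8 and 0.377 at day 12), but at day 12 the adjusted p was 0.00722 when only the compared libraries entered the fit.

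PPARA, the receptor that drives fatty acid oxidation in heart and liver, lies on chromosome 22 (46150521 to 46243756). Its level was 5.06 and 5.46 FPKM in day 8 DMSO, 3.79 and 3.69 with F-53B, and 4.31 and 5.03 with PFOS. By day 12 the values were 7.21 and 7.08 FPKM in DMSO, 3.28 and 2.81 with F-53B, and 6.02 and 4.80 with PFOS. F-53B libraries were again the lowest at each day, and no PFOS library reached the DMSO libraries of its day. PPARA fell with F-53B at day 8 by 0.40 in log2 units (SE 0.11, adjusted p = 0.0132), a call lost without DMSO replicate 2 or either F-53B library (adjusted p up to 0.0810). At day 12 the log2 change was -1.01 (SE 0.11, adjusted p = 1.66e-05). With PFOS at day 12 it was -0.35 and did not pass (adjusted p = 0.064), though it did so when libraries were scaled to equal totals or without PFOS replicate 1 (lowest adjusted p 0.0426).

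PPARD, a receptor expressed in most tissues, was the most abundant of the 3 receptor genes. It measured 13.4 and 12.6 FPKM in day 8 DMSO, 12.1 and 12.4 with F-53B, and 14.7 and 15.3 with PFOS. At day 12 the levels were 16.01 and 16.29 FPKM in DMSO, 13.6 and 14.2 with F-53B, and 15.8 and 16.9 with PFOS. Its only call against DMSO was a fall of 0.20 on the log2 scale with F-53B at day 12 (SE 0.07, adjusted p = 0.0281). That call was lost when libraries were scaled to equal totals and without any 1 of the 4 compared libraries (adjusted p up to 0.127).

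PPARG, the receptor best known for its role in fat cells, moved the other way at low levels. It lies on chromosome 3 (12287368 to 12434356). The levels were 0.49 and 0.40 FPKM in day 8 DMSO, 1.62 and 1.42 with F-53B, and 1.0 and 0.85 with PFOS. At day 12 they were 0.34 and 0.33 FPKM in DMSO, 0.81 and 1.11 with F-53B, and 0.23 and 0.30 with PFOS. PPARG thus reached 1 FPKM only in libraries with a compound, and it passed the filter through the groups where it was high. With F-53B the mean was 3.42-fold higher at day 8 (log2 change 0.80, SE 0.12, adjusted p = 0.000281) and 2.87-fold higher at day 12 (log2 change 0.55, SE 0.12, adjusted p = 0.00194), and with a pseudocount of 0.1 in place of 1 the log2 changes were 1.57 and 1.27. With PFOS the log2 change at day 8 was 0.41 (adjusted p = 0.0593) and passed when no filter was used or without robust moderation and trend (lowest adjusted p 0.0279). Of 8 adipocyte markers, 7 stayed below 1 FPKM in all 12 libraries, PLIN1 and FABP4 among them.

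Promoter windows of RefSeq starts on GRCh38.p14, from 250 bases before to 50 bases after a start, were searched on both strands for the half-site AGGTCA that PPARs and related receptors bind. Windows were given for 33 of the 38 genes, 55 in total, and 4 of them (7.27%), of PPARG and UCP3, held the half-site, against 13.8% of 35116 windows of all genes. Windows of the same gene can overlap: the PPARG windows from 12288810 and from 12288820 held the same half-site, counted in each. PPARs and retinoid X receptors bind a pair of half-sites 1 base apart, AGGTCANAGGTCA. No window of these genes held it exactly, and 8 of all windows did (0.0228%). With up to 2 mismatches, 4 of the 55 windows held it (7.27%), those of ACAA2, CD36, ACSL1 and UCP3, against 2.97% of all windows. TCAAGGTCA, an element of the estrogen-related receptors that contains the half-site, was in 0 of the 55 windows and in 0.353% of all.

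The sequences below show the window of the receptor that rose with F-53B and the paired site of ACSL1, which, like ANGPTL4, fell with both compounds at day 8. Both are printed on the gene's own strand, 5′ to 3′, and a match of letters is not a measured binding site. In the first, from 230 to 171 bases before a PPARG start (chr3:12287138-12287197, plus strand), capitals mark the half-sites. In the second, from 122 to 94 bases before a start inside the ACSL1 gene (chr4:184805647-184805675, minus strand), capitals mark the match to the pair, which lies on the opposite strand with 2 mismatches.
PPARG: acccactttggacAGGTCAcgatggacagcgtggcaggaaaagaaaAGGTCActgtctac
ACSL1: tcggcatgTGACTTGTGCCCTgagagacc

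Among genes of fatty acid uptake, binding and activation, FABP3 and ACSL1 had the largest falls with F-53B. FABP3, the fatty acid-binding protein of heart muscle, lies on chromosome 1 (31365625 to 31376850). It measured 61.3 and 59.1 FPKM in day 8 DMSO, 6.97 and 6.47 with F-53B, and 33.8 and 55.5 with PFOS. Day 12 libraries held 120.6 and 126.5 FPKM in DMSO, 34.8 and 18.2 with F-53B, and 89.6 and 101.4 with PFOS. At both days the 3 groups did not overlap, in the order DMSO, PFOS, F-53B. The mean was 8.95-fold lower with F-53B at day 8 (log2 change -2.99, SE 0.29, adjusted p = 0.000143) and 4.67-fold lower at day 12 (log2 change -2.25, SE 0.29, adjusted p = 0.000304). With PFOS FABP3 did not pass at either day (adjusted p = 0.399 and 0.461), but at day 12 the adjusted p was 0.03 when only the compared libraries were fitted.

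ACSL1, which joins long-chain fatty acids to coenzyme A, was 13.1 and 16.9 FPKM in day 8 DMSO, 6.30 and 6.50 with F-53B, and 7.41 and 8.71 with PFOS. The values at day 12 were 19.4 and 19.3 FPKM in DMSO, 8.71 and 9.78 with F-53B, and 14.0 and 17.1 with PFOS. Both compounds put every library below DMSO at each day. F-53B lowered the mean 2.34-fold at day 8 (log2 change -1.10, SE 0.12, adjusted p = 5.5e-05) and 2.09-fold at day 12 (log2 change -0.99, adjusted p = 4.05e-05). With PFOS ACSL1 fell at day 8 by 0.81 in log2 units (SE 0.12, adjusted p = 0.00359), which was lost without PFOS replicate 1 (adjusted p = 0.0506), and its day 12 change of -0.31 did not pass.

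The other genes of this group moved less. ACSL4, which prefers polyunsaturated fatty acids, fell with F-53B at both days, by 0.24 on the log2 scale at day 8 and by 0.75 at day 12. The day 8 call was lost when libraries were scaled to equal totals and without DMSO replicate 1 or either F-53B library (adjusted p up to 0.135). ACSL3, an enzyme of lipid droplets, fell at day 12 only, by 0.33 on the log2 scale, and its adjusted p was 0.0527 without DMSO replicate 2. SLC27A1, a fatty acid transporter, was between 7.36 and 10.7 FPKM in all libraries and passed against DMSO with neither compound. CD36 was at 0.18 to 0.61 FPKM across the 12 libraries, and the F-53B libraries, at 0.20 and 0.31 and then 0.26 and 0.18, were below the DMSO libraries of their day, at 0.36 and 0.61 and then 0.36 and 0.42. In PFOS libraries CD36 was 0.29 and 0.35 at day 8 and 0.33 and 0.36 at day 12.

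The carnitine shuttle takes acyl-CoA into mitochondria, and all 4 of its genes fell with F-53B at day 12 and 3 of 4 at day 8. Over all tested genes, 28% were called lower at day 12 and 20.5% at day 8. CPT1A, the liver-type carnitine palmitoyltransferase of the outer membrane and a classic PPAR target, lies on chromosome 11 (68754620 to 68844410). It was at 4.61 and 6.02 FPKM in day 8 DMSO, 1.13 and 1.33 with F-53B, and 2.22 and 3.79 with PFOS. Levels at day 12 were 14.0 and 13.6 FPKM in DMSO, 4.14 and 2.94 with F-53B, and 13.2 and 11.6 with PFOS. The F-53B libraries were lowest at both days, and the PFOS libraries lay between them and DMSO. The mean was 4.32-fold lower with F-53B at day 8 (log2 change -1.49, SE 0.19, adjusted p = 0.000116) and 3.91-fold lower at day 12 (log2 change -1.72, SE 0.19, adjusted p = 1.67e-05). With PFOS at day 8 the log2 change was -0.68 and just missed the threshold (adjusted p = 0.053). It passed when libraries were scaled by either method and without PFOS replicate 2 (lowest adjusted p 0.0109).

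CPT1B, the muscle-type enzyme of the same step, measured 12.1 and 16.7 FPKM in day 8 DMSO, 8.26 and 8.42 with F-53B, and 10.4 and 10.9 with PFOS. The day 12 values were 20.9 and 19.5 FPKM in DMSO, 10.5 and 8.5 with F-53B, and 21.4 and 20.5 with PFOS. F-53B libraries were below all others of their day, while at day 12 the ranges of PFOS and DMSO overlapped. CPT1B fell with F-53B by 0.70 on the log2 scale at day 8 (SE 0.13, adjusted p = 0.00105) and by 1.02 at day 12 (SE 0.13, adjusted p = 4e-05). Its exons share 66.4% of their bases with a readthrough transcript of CHKB and CPT1B on the same strand, so reads of the 2 annotations could be exchanged. With PFOS at day 8 its change of -0.39 passed only without DMSO replicate 1 (adjusted p = 0.0147, and 0.0955 with all libraries). SLC25A20, the carnitine-acylcarnitine carrier, fell with F-53B at both days (log2 change -0.36 and -0.69). Its day 8 call was lost without DMSO replicate 2, without either F-53B library, with no filter and with scaling to equal totals (adjusted p up to 0.238). CPT2, which releases acyl-CoA again inside the mitochondrion, was unlike its partners at day 8, with a log2 change of 0.02 that did not pass, and it fell by 0.52 at day 12.

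All 11 tested enzymes of mitochondrial beta-oxidation fell with F-53B at day 12, and 6 of the 11 did at day 8. Over all tested genes, 28% were called lower at day 12 and 20.5% at day 8. ACADS, the short-chain acyl-CoA dehydrogenase, was at 7.13 and 8.68 FPKM in day 8 DMSO, 3.90 and 4.76 with F-53B, and 5.43 and 5.88 with PFOS. For day 12 the levels were 12.3 and 11.8 FPKM in DMSO, 4.85 and 3.30 with F-53B, and 11.6 and 9.81 with PFOS. ECI1, an isomerase for unsaturated fatty acids, was at 43.9 and 49.9, 22.6 and 25.3, and 31.3 and 38.8 FPKM in the same order at day 8. Both genes were lowest in the F-53B libraries of each day. At day 12 ECI1 was at 66.7 and 59.4 FPKM in DMSO, 30.2 and 19.8 with F-53B, and 70.4 and 57.6 with PFOS. ACADS fell with F-53B by 0.74 on the log2 scale at day 8 (SE 0.15, adjusted p = 0.00191) and by 1.38 at day 12 (SE 0.15, adjusted p = 1.27e-05). ECI1 fell by 0.94 at day 8 (SE 0.18, adjusted p = 0.00221) and by 1.33 at day 12 (SE 0.18, adjusted p = 0.000144).

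The other enzymes of the pathway had smaller changes. HADHA and HADHB, the subunits of the trifunctional protein that oxidises long chains, fell with F-53B by 0.29 and 0.38 on the log2 scale at day 8 and by 0.54 and 0.46 at day 12. HADHA was at 93.7 and 96.7 FPKM in day 8 DMSO and 78.7 and 76.3 with F-53B. ACADVL, the very-long-chain dehydrogenase, fell by 0.32 and 0.46, and HADH, the medium- and short-chain hydroxyacyl-CoA dehydrogenase, by 0.48 and 0.85. ACADM, ECHS1, ACAA2, ECI2 and DECR1 did not pass at day 8 (log2 changes from -0.27 to -0.03) and fell at day 12, ECI2 by 0.82, ACADM by 0.64, ACAA2 by 0.57, ECHS1 by 0.31 and DECR1 by 0.29. The smaller calls rested on single libraries. HADHA at day 8 had an adjusted p of up to 0.0657 without DMSO replicate 2 or F-53B replicate 2, ECHS1 at day 12 of up to 0.0931 without DMSO replicate 1 or F-53B replicate 2, and DECR1 at day 12 of up to 0.311 without either DMSO library or F-53B replicate 2. The DECR1 call was also lost with no filter, without robust moderation and trend, and with only the compared libraries. ECI2 shares 27.1% of its exon bases with C6orf201 on the opposite strand. With PFOS none of the 11 passed at either day, where few of all tested genes did. Called higher and lower were 3.69% and 3.08% of all at day 8, and 6.67% and 5.62% at day 12. At an unadjusted p under 0.05 limma gave 2 of them lower at day 8 and 1 higher at day 12. ACADL was at 0.62 and 0.91 FPKM in day 12 DMSO, 0.20 and 0.07 with F-53B and 0.50 and 0.95 with PFOS, and at no more than 0.25 FPKM in any day 8 library.

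The electron transfer genes pass electrons from the acyl-CoA dehydrogenases to the respiratory chain. ETFB, the beta subunit of the flavoprotein, was at 56.0 and 55.5 FPKM in day 8 DMSO, 30.1 and 27.6 with F-53B, and 42.6 and 50.8 with PFOS. Its day 12 levels were 87.1 and 79.2 FPKM in DMSO, 44.2 and 34.5 with F-53B, and 114.2 and 94.6 with PFOS. In the PFOS libraries of day 12 ETFB was thus above DMSO, a log2 change of 0.32 that did not pass (adjusted p = 0.126). ETFB fell with F-53B by 0.93 at day 8 (SE 0.13, adjusted p = 0.000187) and by 1.07 at day 12 (SE 0.13, adjusted p = 2.91e-05). ETFA, the alpha subunit, fell by 0.64 and 0.96. ETFDH, the membrane-bound acceptor of these electrons, was at 5.68 and 6.21 FPKM in day 8 DMSO, 4.99 and 4.87 with F-53B, and 5.59 and 6.25 with PFOS. Its levels at day 12 were 14.1 and 12.3 FPKM in DMSO, 6.68 and 5.35 with F-53B, and 14.41 and 17.02 with PFOS. Only the day 12 F-53B change of ETFDH passed (log2 change -1.02, SE 0.11, adjusted p = 1.84e-05), and 10.9% of its exon bases overlap PPID on the opposite strand.

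Of the 4 genes of peroxisomal beta-oxidation 0 passed with F-53B at day 8, where 20.5% of all tested genes were called lower. The same held at an unadjusted p under 0.05 in limma, with log2 changes from -0.17 to 0.02. All 4 fell at day 12, where 28% of all tested genes were called lower. ACAA1, the peroxisomal thiolase, fell by 0.71 in log2 units (SE 0.08, adjusted p = 1.37e-05), from 57.2 and 52.9 FPKM in DMSO to 34.9 and 31.6. Of its exon bases 19.7% overlap DLEC1 on the opposite strand. ACOX3 and EHHADH, an acyl-CoA oxidase and the bifunctional enzyme, each fell by 0.51, and HSD17B4, the second bifunctional enzyme, by 0.35. With PFOS, ACOX3 fell at day 12 by 0.36, from 9.32 and 9.78 FPKM to 7.84 and 6.61. Its adjusted p of 0.0418 rose to as much as 0.226 without either DMSO library or PFOS replicate 2, with no filter or with only the compared libraries.

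**Figure D2:**
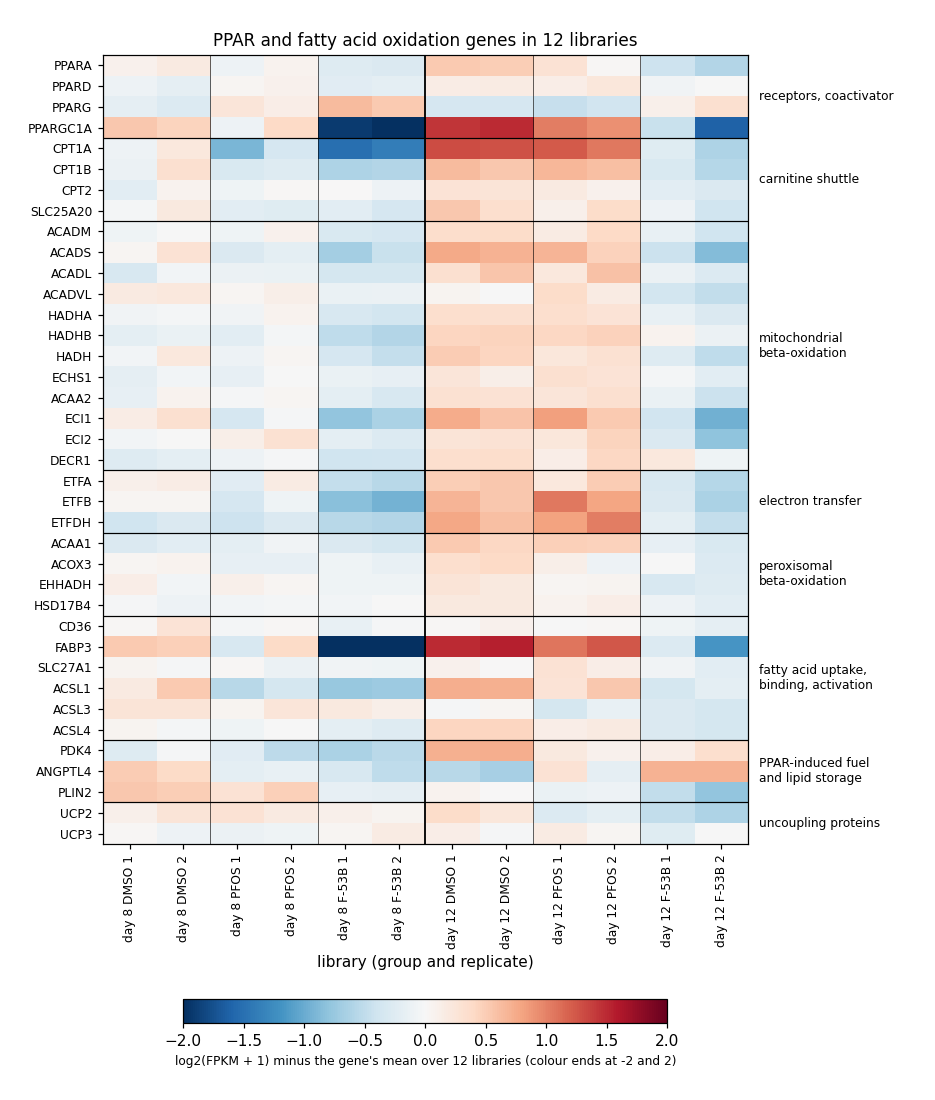
Level of all 38 genes in each of the 12 libraries as log2(FPKM + 1) minus the mean of the gene, grouped by role; red is above and blue below the mean, and the colour ends at -2 and 2. In the day 12 columns F-53B sits lower on the colour scale than DMSO in the rows of the 32 genes that fell, and PPARG and ANGPTL4 run the other way.

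ANGPTL4, PDK4 and PLIN2 are induced by PPARs in many tissues. ANGPTL4, a secreted inhibitor of lipoprotein lipase, lies on chromosome 19 (8363289 to 8374373) and was the gene whose response turned between the days. It was at 9.05 and 8.21 FPKM in day 8 DMSO, 4.66 and 3.95 with F-53B, and 5.17 and 5.39 with PFOS. Its values at day 12 were 3.80 and 3.48 FPKM in DMSO, 10.5 and 10.4 with F-53B, and 7.67 and 5.22 with PFOS. All compound libraries were below DMSO at day 8 and above it at day 12. With F-53B the mean was lower at day 8 (log2 change -0.86, SE 0.14, adjusted p = 0.00043) and 2.88-fold higher at day 12 (log2 change 1.31, SE 0.14, adjusted p = 1.03e-05). With PFOS it was 1.63-fold lower at day 8 (log2 change -0.62, SE 0.14, adjusted p = 0.021) and 1.77-fold higher at day 12 (log2 change 0.66, SE 0.14, adjusted p = 0.0091). The PFOS call at day 8 was lost without any 1 of the 4 libraries compared (adjusted p from 0.0527 to 0.152). At day 12 it was lost without DMSO replicate 2 (adjusted p = 0.0853) and without PFOS replicate 1 (log2 change 0.42, adjusted p = 0.058).

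PDK4, the kinase that shuts off pyruvate dehydrogenase when fatty acids are burned, was low. It measured 1.16 and 1.55 FPKM in day 8 DMSO, 0.68 and 0.79 with F-53B, and 1.21 and 0.81 with PFOS. Its day 12 values were 3.25 and 3.29 FPKM in DMSO, 1.84 and 2.28 with F-53B, and 1.98 and 1.74 with PFOS. At day 12 both compounds left every library well below DMSO and overlapped each other, and at day 8 PFOS overlapped DMSO. PDK4 fell with F-53B by 0.44 at day 8 (SE 0.13, adjusted p = 0.0202, up to 0.151 without DMSO replicate 2 or either F-53B library), and by 0.79 with a pseudocount of 0.1. It fell at day 12 by 0.48 with F-53B (SE 0.13, adjusted p = 0.00881, and 0.0639 without F-53B replicate 1) and by 0.58 with PFOS (SE 0.13, adjusted p = 0.0166, and 0.0555 to 0.108 without any 1 of the 4 libraries).

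PLIN2, the coat protein of lipid droplets, measured 75.8 and 73.2 FPKM in day 8 DMSO, 46.5 and 45.7 with F-53B, and 64.1 and 72.5 with PFOS. Day 12 levels were 54.7 and 52.0 FPKM in DMSO, 36.8 and 29.8 with F-53B, and 47.2 and 48.3 with PFOS. F-53B libraries were lowest at both days, with falls of 0.68 (SE 0.10, adjusted p = 0.000209) and 0.67 (SE 0.10, adjusted p = 0.000103) on the log2 scale. Of the uncoupling proteins, carriers of the inner mitochondrial membrane, UCP2 fell at day 12 with both compounds. It went from 6.16 and 5.55 FPKM in DMSO to 2.96 and 2.63 with F-53B (log2 change -0.85, SE 0.10, adjusted p = 1.98e-05) and 3.63 and 3.85 with PFOS (log2 change -0.53, SE 0.10, adjusted p = 0.00489). The PFOS call for UCP2 was lost without DMSO replicate 1 (adjusted p = 0.0594). UCP3 stayed between 0.78 and 1.36 FPKM and passed with neither compound. ACSL4, the fourth gene that fell with PFOS at day 12, went from 14.0 and 14.0 FPKM to 11.27 and 11.67 (log2 change -0.27, adjusted p = 0.0379, and 0.0521 to 0.181 without any 1 of the 4 libraries; with the replicate block it did not pass).

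F-53B and PFOS were compared with each other at the same dose on each day, 1 pair of compounds at 2 days, with p-values adjusted over all 14080 genes. At day 8, 13 of the 36 genes were lower with F-53B than with PFOS and 1, PPARG, was higher, where 15% of all tested genes were called lower and 13.3% higher. The PPARG difference was 0.39 in log2 (adjusted p = 0.0302 in limma) and 0.33 to 0.66 over the alternatives tried. It missed the threshold with a pseudocount of 0.1. At day 12, 29 of the 36 genes were lower and 2 higher, ANGPTL4 and PPARG, where 24% and 23.9% of all tested genes were called so. In both counts PPARG had passed the filter only through libraries with a compound, most of them with F-53B. The median difference was -0.26 at day 8 and -0.52 at day 12. The day 8 count of 14 dropped to 7 without F-53B replicate 1, 6 without F-53B replicate 2 and 4 without PFOS replicate 2. Over all genes called at day 8, 47% were higher with F-53B, against 59.2% when libraries were scaled to equal totals.

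The difference between the compounds was largest for FABP3 and PPARGC1A. FABP3 differed by -2.52 in log2 at day 8 (95% interval -3.20 to -1.84, adjusted p = 0.00128) and by -1.88 at day 12 (-2.56 to -1.20, adjusted p = 0.00116). PPARGC1A differed by -2.19 at day 8 (-2.95 to -1.44, adjusted p = 0.00282) and by -2.004 at day 12 (-2.76 to -1.25, adjusted p = 0.0013). CPT1A differed by -0.82 at day 8 (-1.23 to -0.41, adjusted p = 0.00897, and 0.0903 at most without F-53B replicate 1 or PFOS replicate 2) and by -1.57 at day 12 (-1.98 to -1.16, adjusted p = 6.4e-05). The coactivator, the binding protein and the shuttle enzyme were thus lower with F-53B than with PFOS at both days. At day 12 the next largest differences were in ETFB (-1.39, interval -1.67 to -1.11), ECI1 (-1.34, interval -1.75 to -0.94) and ETFDH (-1.25, adjusted p = 1.28e-05). The intervals are not corrected for the number of genes.

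For some other genes no difference between the compounds passed the test at 1 of the days or at both. ACSL1 at day 8, which fell with both, differed by -0.29 (95% interval -0.56 to -0.02, adjusted p = 0.102). ANGPTL4 at day 8 differed by -0.25 (interval -0.54 to 0.05, adjusted p = 0.193), and at day 12 it was higher with F-53B by 0.64 (interval 0.35 to 0.94, adjusted p = 0.00228). That last difference was 0.40 without PFOS replicate 2 and still passed (adjusted p = 0.0148). PDK4 differed by -0.21 at day 8 (interval -0.50 to 0.09) and by 0.10 at day 12 (interval -0.20 to 0.39), and neither passed. CPT1B at day 8 differed by -0.32 (interval -0.60 to -0.04, adjusted p = 0.0824), which passed when only the compared libraries were fitted (adjusted p = 0.0216). Among the peroxisomal genes 0 of 4 passed at day 8, with 1 lower at an unadjusted p under 0.05 in limma. Of all tested genes 15% were called lower and 13.3% higher at that day. At day 12, where 24% of all tested genes were called lower, 3 of 4 were lower with F-53B, all but ACOX3 (-0.14, interval -0.37 to 0.08). The day 12 differences of UCP3, ACSL3 and DECR1 did not pass either (intervals -0.49 to 0.05, -0.26 to 0.12 and -0.44 to 0.02).

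In DMSO alone most of these genes were higher at day 12 than at day 8. Of the 36 genes 25 rose and 3 fell, where 19.5% of all tested genes were called higher and 18.2% lower, and the median log2 change was 0.37 against 0.03 over all tested genes. All 4 shuttle genes and all 3 electron transfer genes rose, with 8 of 11 of mitochondrial and 3 of 4 of peroxisomal beta-oxidation. CPT1A rose most, by 1.24 in log2 units (SE 0.19, adjusted p = 0.000388), a 2.60-fold rise of the mean. ETFDH rose by 1.03 (SE 0.11, adjusted p = 4.19e-05), PDK4 by 0.86 (SE 0.13, adjusted p = 0.000428) and ACAA1 by 0.72 (SE 0.08, adjusted p = 2.84e-05). FABP3 rose by 1.03 (SE 0.29, adjusted p = 0.0269) and PPARGC1A by 0.97 (SE 0.33, adjusted p = 0.0479). Both calls were lost without any 1 of the 4 DMSO libraries, with adjusted p of 0.0898 to 0.107 for FABP3 and 0.129 to 0.162 for PPARGC1A, although the DMSO libraries of the 2 days did not overlap for either gene. PPARGC1A also missed the threshold at a pseudocount of 0.1 and with the replicate number as a block.

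The 3 genes that fell over time in DMSO were ANGPTL4 (log2 change -1.05, SE 0.14, adjusted p = 0.000118), PLIN2 (-0.47, adjusted p = 0.00239) and ACSL3 (-0.25, adjusted p = 0.0422). The count of 28 calls was 13 without day 8 DMSO replicate 1, 13 without day 12 DMSO replicate 1 and 17 without day 12 DMSO replicate 2. In all alternatives together 12 of the 28 calls held. CPT1B rose by 0.48, and by 0.26 without day 8 DMSO replicate 1 (adjusted p = 0.12).

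The effect of each compound was then compared between the days. For F-53B, the effect at day 12 was below that at day 8 for 7 of the 36 genes and above it for 1, where 7.02% of all tested genes were called lower and 9.35% higher. The 1 was ANGPTL4, by 2.17 in log2 units (SE 0.19, adjusted p = 4.64e-05). The 7 were ETFDH, UCP2, ACAA1, PPARA, CPT2, ACSL4 and HSD17B4, by -0.80 to -0.37. The count of 8 was 5 without day 8 F-53B replicate 1 or either day 12 DMSO library, and 15 without day 12 F-53B replicate 1, the library of that pair with the higher levels. The calls of PPARA, CPT2 and HSD17B4 were each lost without at least 5 of the 8 libraries in turn (adjusted p up to 0.0755, 0.0814 and 0.0951). For PFOS only ANGPTL4 differed between the days, by 1.28 (SE 0.19, adjusted p = 0.00925, and 0.0539 without day 12 DMSO replicate 2), so 1 gene was called higher and 0 lower, where 0.611% of all tested genes were called higher and 0.795% lower. At an unadjusted p under 0.05 limma gave 5 higher and 2 lower. Over all genes called in this comparison 43.4% were higher, against 31.2% when libraries were scaled to equal totals.

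The same pathway was also read through 60 other tested genes, listed by their role and chosen, like the 38, with earlier results of these data known. With F-53B, 23 of the 60 fell and 9 rose at day 8, where 20.5% of all tested genes were called lower and 23.5% higher. At day 12, 33 fell and 9 rose, where 28% and 28.2% of all were called so. With PFOS 3 fell and 2 rose at day 8 (3.08% and 3.69% of all tested genes), and 3 fell and 5 rose at day 12 (5.62% and 6.67%). ESRRG, an estrogen-related receptor that works with PGC-1alpha on mitochondrial genes, was at 3.65 and 4.27 FPKM in day 8 DMSO and 0.26 and 0.26 with F-53B (log2 change -1.97, SE 0.20, adjusted p = 3.26e-05), and it fell by 1.80 at day 12 (adjusted p = 2e-05). SLC27A6, a fatty acid transporter of the heart, fell by 1.90 at day 8 (adjusted p = 0.000611) and at day 12 by 3.68 (SE 0.29, adjusted p = 4.68e-06), from 21.2 and 26.7 FPKM to 1.56 and 0.46. PDK1, another pyruvate dehydrogenase kinase, fell by 1.42 at day 8 and 1.74 at day 12.

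At day 8 the 3 genes of this wider list with the largest rises were PPRC1, a relative of the PGC-1 coactivators (0.60), CPT1C, a brain-type relative of CPT1A (0.59), and SLC27A3, an acyl-CoA synthetase (0.59). At day 12 SLC27A3 (0.71) and CPT1C (0.64) rose again. SLC27A3 also rose with PFOS, by 0.46 at day 8 and 0.39 at day 12. With PFOS the falls at day 8 were in PNPLA2, a triglyceride lipase (-0.44), DGAT1, a triglyceride synthesis enzyme (-0.41), and MLYCD, which breaks down malonyl-CoA (-0.33). At day 12 they were in PRKAB2, a subunit of AMP-activated kinase (-0.55), OXCT1, an enzyme of ketone use (-0.55), and TMLHE, of carnitine synthesis (-0.36). MLYCD, which had fallen at day 8, rose at day 12 (0.30, adjusted p = 0.0351). Rises with PFOS at day 12 included FABP1, the liver fatty acid-binding protein (1.17, adjusted p = 0.0235, at 1.07 and 0.32 FPKM in DMSO and 1.89 and 3.82 with PFOS, so that it passed the filter through the group where it was high). In DMSO over time 29 of the 60 rose and 4 fell, led by SLC27A6 (2.54), RXRG, a retinoid X receptor (2.31), and ESRRG (0.98).

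Other mitochondrial genes moved with these results, while markers of some cell types also changed with PFOS, where few of the 36 tested genes passed. Of 18 tested nuclear genes of the respiratory chain and related mitochondrial proteins, 16 fell with F-53B at day 8 and all 18 at day 12, and 16 rose over time in DMSO. Of all tested genes 20.5% and 28% were called lower with F-53B at these days, and 19.5% higher over time in DMSO. With PFOS 0 of 18 passed at either day, and at an unadjusted p under 0.05 limma gave 4 lower at day 8 and 2 lower at day 12. The PFOS shares over all tested genes were 3.69% higher and 3.08% lower at day 8, and 6.67% and 5.62% at day 12. As a share of all FPKM the 19 mitochondrial genes among the 38 (shuttle, beta-oxidation and electron transfer) made up 0.185% and 0.197% in day 8 DMSO, 0.155% and 0.153% with F-53B, and 0.178% and 0.195% with PFOS. At day 12 their share was 0.249% and 0.243% in DMSO, 0.170% and 0.148% with F-53B, and 0.246% and 0.241% with PFOS. The F-53B libraries of each day were below both other groups, and the PFOS and DMSO libraries overlapped.

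Of the 22 cardiomyocyte markers 21 fell with F-53B at day 8 and 22 at day 12, with median log2 changes of -3.52 and -3.12. Of all tested genes 20.5% and 28% were called lower at these days. With PFOS 0 of 22 passed at day 8, with 4 lower at an unadjusted p under 0.05 in limma, and 2 fell at day 12. Over all tested genes 3.08% and then 5.62% were called lower with PFOS. The cardiomyocyte markers' share of FPKM with PFOS was 1.66% and 2.38% and then 4.27% and 3.995%. The 14 markers of hepatic endoderm, a lineage that also expresses PPARA and CPT1A, summed to 64.5 and 124.6 FPKM in day 8 DMSO, 34.8 and 31.3 with F-53B, and 44.6 and 60.3 with PFOS. Their sum at day 12 was 754.2 and 528.2 FPKM in DMSO, 30.3 and 17.03 with F-53B, and 212.9 and 304.1 with PFOS. APOA1 made up most of the day 8 F-53B sums, at 33.0 and 29.1 FPKM against 17.2 and 15.6 in DMSO. Of the 14 hepatic markers 9 fell and 1 rose with F-53B at day 8, and 13 fell and 0 rose at day 12. Fibroblast and epicardial markers moved the other way. With F-53B 9 of 10 fibroblast markers rose and 1 fell at day 8, and all 10 rose at day 12. Of 16 epicardial markers 13 rose and 1 fell with F-53B at day 8, and 14 rose and 1 fell at day 12. Of all tested genes 23.5% and 28.2% were called higher with F-53B at these days. With PFOS at day 12, 6 fibroblast and 10 epicardial markers rose, 1 epicardial marker fell, and 8 hepatic markers fell and 1 rose. In that comparison 6.67% of all tested genes were called higher and 5.62% lower, and of the 36 genes 1 rose and 4 fell. At day 12 the fibroblast markers summed to 426.8 and 438.04 FPKM in DMSO, 1946 and 2295 with F-53B, and 994.9 and 859.1 with PFOS. The epicardial markers summed to 255.8 and 249.4 FPKM in DMSO, 918.9 and 1186 with F-53B, and 417.3 and 366.2 with PFOS. The 11 endothelial markers, of cells that can carry CD36, summed to 115.2 and 125.6 FPKM in day 8 DMSO, 97.3 and 99.5 with F-53B, and 94.2 and 101.3 with PFOS, and to 82.6 and 81.6, 60.1 and 60.3, and 81.2 and 69.8 FPKM in the same order at day 12. Of the 9 tested, 6 fell and 1 rose with F-53B at day 8, and 6 fell and 2 rose at day 12. No marker of these lists was listed at 0 in all libraries.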

How the data were processed

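The files hold FPKM per gene and library as deposited by the authors, per the file headers. The submitters' processing notes name HISAT, Bowtie2, RSEM and the build GRCh38 with patch p11, without versions or order. Up to 10 lines per file that name no gene were left out, and 1002 of 20042 listed genes hold no value. Only FPKM were used, so depth is unknown and no interval from counts is given.

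Differences were fitted with limma 3.58.1 in R 4.3.3 on log2(FPKM + 1), with 1 mean per group, all 12 libraries, robust moderation and a mean-variance trend, over the 14080 genes that reached 1 FPKM in 2 or more libraries. All p-values adjusted by Benjamini-Hochberg over these genes are two-sided, with a threshold of 0.05, in 9 comparisons. The procedure was tested on simulated data with independent normal noise in every library. That setting cannot show how it performs if the libraries of a group are not separate cultures. The members and lists were chosen with earlier results of these data known.

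Levels of every library are given for 11 fixed genes (PPARA, PPARD, PPARG, PPARGC1A, CPT1A, CPT1B, PDK4, ANGPTL4, PLIN2, FABP3, CD36) and for members past the test with an absolute log2 change of at least 1; those given for other genes were chosen after their values were seen. Of the other pathway genes, the 3 with the largest called change in each direction were named, except for items that are not reported here. Locations are from GENCODE 29 on GRCh38, and promoter windows from RefSeq on GRCh38.p14. The strand used in counting is not given in the sources used here, so reads of overlapping genes cannot be told apart.

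Alternatives tried were a pseudocount of 0.1, no filter, scaling to equal totals or by the median of ratios, no robust moderation or trend, the compared libraries alone, the replicate number as a block, and leaving out each library.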

Additional observations from a re-analysis of the deposited data

Results flagged for a closer look

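In 9 cases the effect of a compound differed between the days by a test of the difference itself in limma, adjusted over all genes tested. Of the 36 genes these were 8 for F-53B and 1 for PFOS. Over all tested genes 9.35% were called higher and 7.02% lower for F-53B, and 0.611% and 0.795% for PFOS. ANGPTL4 stood apart: its F-53B effect was higher at day 12 than at day 8 by 2.17 in log2 (adjusted p = 4.64e-05), and its PFOS effect by 1.28 (adjusted p = 0.00925), and both compounds lowered it at day 8 and raised it at day 12. In DMSO its level was 9.05 and 8.21 FPKM at day 8 and 3.80 and 3.48 at day 12, so the reference itself fell between the days, and the compared effects use those libraries.

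For the other 7 genes the F-53B effect was lower at day 12 than at day 8. The difference was -0.80 for ETFDH (adjusted p = 0.00664), -0.75 for UCP2 (adjusted p = 0.00352), -0.64 for ACAA1 (adjusted p = 0.0024), -0.61 for PPARA (adjusted p = 0.0226), -0.54 for CPT2 (adjusted p = 0.0187), -0.51 for ACSL4 (adjusted p = 0.00714) and -0.37 for HSD17B4 (adjusted p = 0.0224). Of these 7, the peroxisomal genes ACAA1 and HSD17B4 and the genes CPT2, ETFDH and UCP2 did not pass against DMSO at day 8 and fell at day 12. The calls of PPARA, CPT2 and HSD17B4 were lost when single libraries were left out (adjusted p up to 0.0755, 0.0814 and 0.0951). No cause of these differences was tested.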

How the results depend on the processing

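With 2 libraries per group and FPKM alone, the calls near the threshold moved with single libraries. Of the calls on the 36 genes, 15 of 20 with F-53B at day 8 and 29 of 34 at day 12 held under every alternative run, as did 4 of 14 and 25 of 31 between the compounds, 12 of 28 over time in DMSO, 5 of 8 between days for F-53B, and 0 of 2, 0 of 5 and 0 of 1 for PFOS at day 8, at day 12 and between days. Leaving out 1 library changed the count of called genes among the 36, and among all genes, to 0 to 2 and 170 to 956 for PFOS at day 8, 1 to 4 and 583 to 2024 for PFOS at day 12, 4 to 14 and 1191 to 3717 between compounds at day 8, 13 to 22 and 3355 to 3936 over time in DMSO, 5 to 15 and 1326 to 2413 for the F-53B effect between days, and 0 to 2 and 59 to 339 for the PFOS effect between days. With only the compared libraries, 437 genes in all were called with PFOS at day 8 against 953, and with equal totals 2 of the 36 between days for PFOS against 1.

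The sign of 2 differences near 0 turned, and neither had passed. PPARD with PFOS at day 12 (0.01) was -0.0227 with equal totals, -0.00541 by the median of ratios, and -0.0323 to 0.0602 with 1 library left out. PDK4 between the compounds at day 12 (0.10) was -0.0089 to 0.20 with 1 library left out. A pseudocount of 0.1 raised the F-53B change of PPARG to 1.57 at day 8 and 1.27 at day 12 and that of PDK4 at day 8 to -0.79, and the difference of PPARG between the compounds at day 8 (0.66) then missed the threshold. No scaling moved the median of all genes by more than 0.1. The cause of these shifts was not tested.

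Replicate numbers were shared only as numbers: deviations of same-numbered libraries correlated with r from -0.378 to 0.186 over 15 pairs of groups. With the replicate number as a block, 20, 2, 34, 4, 13, 31, 26, 8 and 1 of the 36 genes were called, in the order F-53B and PFOS at day 8, the same at day 12, between compounds at day 8 and day 12, time in DMSO, and F-53B and PFOS between days, and no count of calls moved by over 1.5 times. The calls lost were ACSL4 with PFOS at day 12, ECI2 and DECR1 between compounds at day 8, and PPARGC1A and SLC25A20 over time in DMSO.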
